A study of Mus musculus with 5 samples.

Results

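The T cell-polarising interleukin genes are cytokine genes whose products are released by dendritic cells, monocytes and macrophages and steer the kind of response that T cells make. The set was defined by name as 9 genes: Il12a, Il12b, Il23a, Il27, Ebi3, Il15, Il10, Il6 and Osm. Members were read from the probe sets of the deposited table that the platform annotation pairs with exactly 1 of these symbols. These were 9 probe sets of 8 genes, of 34945 probe sets of 18193 genes in all, with 2 probe sets for Il12b and 1 for each of the other members. Il27, which encodes the p28 subunit of interleukin 27, had no such probe set and was not analysed here.

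RNA was measured on Affymetrix arrays in sorted cells of C57BL/6 mice labelled as female and 6 to 8 weeks old, with 1 array per sample. Brain dendritic cells (DCs) were hybridised to 2 arrays; they were sorted as CD11c-positive cells with high CD45 and no lineage marker, 12 days after the mice were given a subcutaneous inoculum of B16-Flt3L tumour cells. B16-Flt3L is a mouse melanoma line that releases Flt3 ligand, a growth factor that expands dendritic cells, so these are cells of a tumour-bearing, growth factor-treated host. Bone marrow monocytes were hybridised to 3 arrays; they were sorted by surface CD115, high CD11b and low side scatter, and their labels name no treatment. Nothing in the labels says whether animals were pooled or whether each sample is a different animal; the p-values therefore describe a spread between samples that may be technical. Microglia and spleen dendritic cells, which the title of the study also names, were not analysed here.

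Most of these cytokines act as pairs of subunits or through shared receptors. Interleukin 12 pairs the p35 subunit (Il12a) with p40 (Il12b), and interleukin 23 pairs p19 (Il23a) with the same p40. Interleukin 27 pairs p28 with EBI3, and EBI3 can also pair with p35. Interleukin 12 favours interferon gamma-producing T helper cells, interleukins 6 and 23 favour T helper 17 cells, and interleukin 10 restrains antigen-presenting cells and T cells. Interleukin 6 and oncostatin M signal through gp130, the product of Il6st.

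Promoter sequence was available in the RefSeq table (GRCm38.p6) for 4 members: Il12a, Il12b, Ebi3 and Il6. The windows of Il6 and Il12b are shown because these members had the largest differences between the groups. Each runs over the 250 bases before the transcript start, 5′ to 3′ on the plus strand, at chr5:30012864-30013113 for Il6 and chr11:44399813-44400062 for Il12b. Capitals mark matches, on either strand, to any of 5 motifs searched: NF-kappaB (GGANTTTCC), AP-1 (TGANTCA), C/EBP (TTNCNNAA), interferon regulatory factor (GAAANNGAA) and TATA (TATANA).
Il6: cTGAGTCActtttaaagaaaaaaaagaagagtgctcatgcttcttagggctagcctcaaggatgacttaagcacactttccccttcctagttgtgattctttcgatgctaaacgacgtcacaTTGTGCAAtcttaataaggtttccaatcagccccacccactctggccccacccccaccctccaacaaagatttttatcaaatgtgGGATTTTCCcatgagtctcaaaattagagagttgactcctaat
Il12b: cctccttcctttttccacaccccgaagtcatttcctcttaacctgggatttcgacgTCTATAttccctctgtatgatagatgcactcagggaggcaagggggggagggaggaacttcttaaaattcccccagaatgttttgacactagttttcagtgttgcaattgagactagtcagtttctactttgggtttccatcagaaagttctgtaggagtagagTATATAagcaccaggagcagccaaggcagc

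The Il6 window held an NF-kappaB match that begins 43 bases before the start, an AP-1 match 249 bases and a C/EBP match 128 bases before the start. The Il12b window held TATA matches 30 and 194 bases before the start and no match to the other motifs. The windows of Il12a and Ebi3, which are not shown, held no match to any of the motifs. Of 32851 promoter windows of the same length in the table, 36.8% held the C/EBP letters, 22.6% the TATA letters, 7.13% the interferon regulatory factor letters, 6.75% the AP-1 letters and 1.07% the NF-kappaB letters. The motif letters were chosen after the windows had been read. A looser NF-kappaB form, GGG and CC with any 5 bases between them, was held by 45.8% of the windows. A match is a description of the letters and not of binding.

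The values were log2 values made by RMA and centred within each probe set. They hold differences between arrays, and neither an absolute level nor detection above background. Differences are brain DC minus monocyte on the log2 scale with the standard error (SE) of limma's linear model, and a gene was called at an adjusted p below 0.05 over all 18193 genes. With 2 against 3 arrays an exact two-sided permutation test cannot give a p below 0.1, so the calls rest on the spread that limma shares across genes. All 10 measured conventional dendritic cell markers were called higher in brain DCs, among them Xcr1, H2-Ab1, Itgae and the gate gene Itgax. Of 8 monocyte markers, 7 were called lower, with Fn1, F13a1, Chil3 and the gate gene Itgam at the largest decreases. The remaining monocyte marker, Cd14, went the other way and was called higher (2.31, limma adjusted p = 0.00235). Genes of the sort gates are a check of the labels. Xist, the noncoding RNA of the inactive X chromosome, was at -0.30 and -0.52 in brain DCs and at -5.86, -6.02 and -6.21 in monocytes, although all 5 samples carry the same sex label. The Y chromosome genes Eif2s3y (-0.62), Kdm5d (-1.09) and Uty (-0.91) were called lower in brain DCs, with much smaller differences. Eif2s3y was at 3.34 and 2.93 in brain DCs, against 3.75, 3.93 and 3.58 in monocytes. Control RNA spiked in at labelling (poly-A controls, 24 probe sets) was higher on every such probe set in brain DCs, with a median difference of 2.59. The hybridisation controls (18 probe sets) were also all higher in brain DCs, with a median difference of 1.04. Cell type, tissue, host treatment and these technical and sex-linked differences separate the groups in the same way and cannot be told apart. In such bulk samples a change in the share of cells that make a transcript and a change in the amount per cell cannot be told apart either.

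Of the 8 measured interleukin genes, 4 were called higher in brain DCs, 0 lower and 4 were not called. Over all genes 16.9% were called higher and 16.9% lower. The higher genes were Il6 and Il12b, with large differences, and Il10 and Il12a, with differences below 1. Il23a, Osm, Il15 and Ebi3 were not called. The median difference of the 8 genes was 0.54, against 0.09 for all genes. The brain DC and monocyte arrays did not overlap in 5 members, the called ones and Il23a, a share near the 60.2% of all genes whose groups did not overlap.

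**Figure D1:**
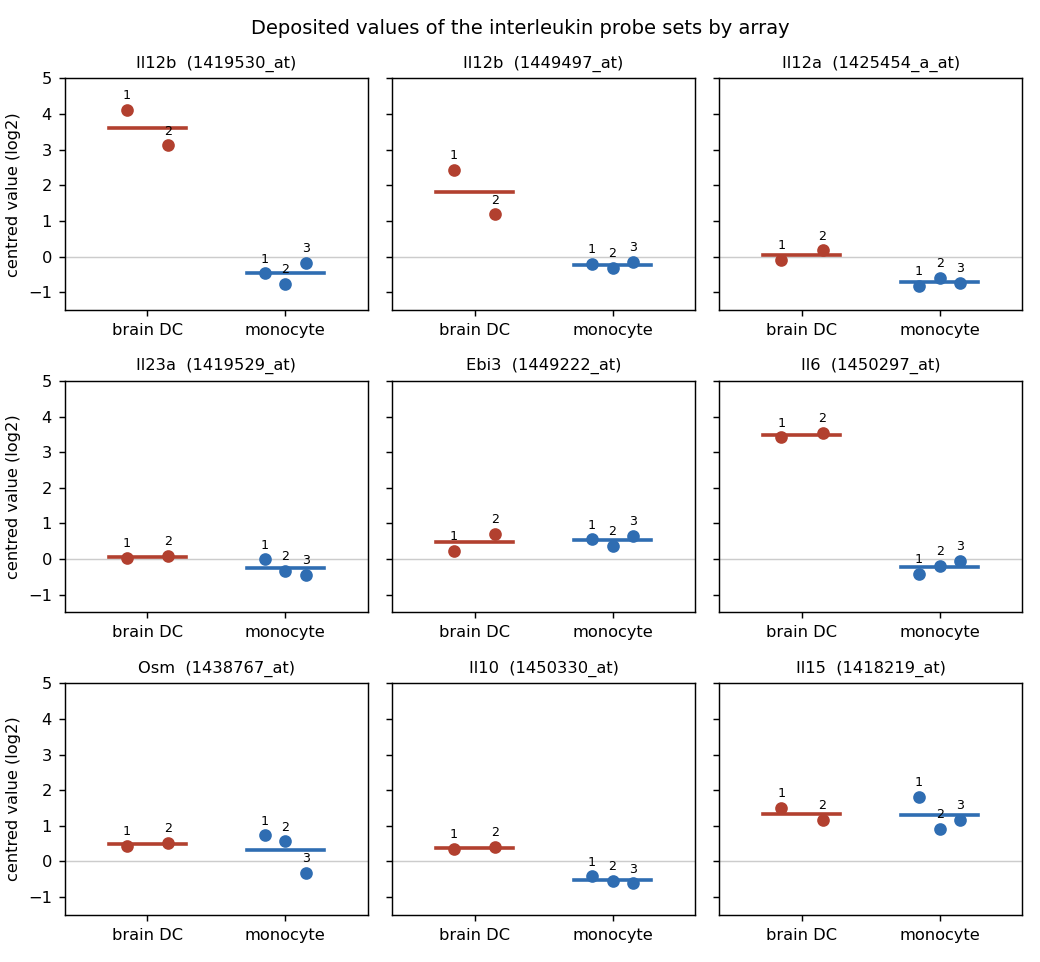
Centred log2 value (y axis) of each of the 9 probe sets in 2 brain DC arrays (red, left) and 3 bone marrow monocyte arrays (blue, right). Points are arrays labelled with their replicate number, bars are group means, and the values of different probe sets are centred separately and cannot be compared as levels. Both Il12b probe sets and Il6 stand clear of the monocyte arrays, and Il15, Osm and Ebi3 overlap.

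Il12b encodes p40, the subunit common to interleukins 12 and 23. On probe set 1419530_at it was at 4.12 and 3.12 in brain DCs, against -0.47, -0.77 and -0.18 in monocytes. On probe set 1449497_at it was at 2.43 and 1.18 in brain DCs, against -0.21, -0.32 and -0.16 in monocytes. Both brain DC arrays lay above all monocyte arrays on both probe sets. The mean of the probe sets was 8.37-fold higher in brain DCs (3.07 ± 0.30 SE, n = 2 brain DC and 3 monocyte arrays, limma adjusted p = 0.000319), a difference larger than that of 98.9% of all genes in size.

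The size of the Il12b difference depended on the probe set and on the brain DC array. In a fit on all 45037 probe sets other than controls, of which 12.2% were called higher, 5 of the 9 member probe sets were called higher and 0 lower. The probe set of Il12a lost its call in that fit without brain DC replicate 2 (0.64, limma adjusted p = 0.0556). For Il12b, 1419530_at gave 4.09 ± 0.31 SE and 1449497_at gave 2.04 ± 0.33 SE, which is 17.1-fold against 4.10-fold. The first probe set minus the second was 1.69 and 1.94 in brain DCs and -0.26, -0.45 and -0.02 in monocytes. Which of them is closer to the change in transcript cannot be read from these values. Brain DC replicate 1 was above replicate 2 by 1.01 on the first probe set and by 1.25 on the second. The gap of 1.13 in the gene mean was wider than in 99.3% of all genes, and 135 of 18192 other genes had a wider one. Without brain DC replicate 1 the Il12b difference was 2.50, and without brain DC replicate 2 it was 3.63. Fits that leave out a brain DC array keep only 1 of them, so their spread comes from the monocyte arrays alone.

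Il12a encodes p35, the subunit that makes interleukin 12 when joined to p40. It was at -0.08 and 0.17 in brain DCs, against -0.83, -0.60 and -0.74 in monocytes. The brain DC arrays lay above the monocyte arrays, by a margin much smaller than for Il12b. Its difference was 0.77 ± 0.14 SE, or 1.70-fold (limma adjusted p = 0.00513). Measured within each array and set to a monocyte mean of 0, the gap of Il12b over Il12a was 2.99 and 1.61 in brain DCs and 0.12, -0.31 and 0.19 in monocytes. Both brain DC arrays lay above all monocyte arrays in this gap, which was not tested. Its Il12b side is the mean of 2 probe sets, whose differences were 4.09 and 2.04. The size of this gap, and of those over Il23a and Ebi3 below, therefore depends on the probe set.

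Il23a encodes p19, the subunit that makes interleukin 23 when joined to p40. It was at 0.04 and 0.08 in brain DCs, against -0.01, -0.33 and -0.44 in monocytes. The groups did not overlap, but monocyte replicate 1 lay close below the brain DC arrays. The difference of 0.32 ± 0.16 SE was not called (limma adjusted p = 0.159), with a 95% interval from -0.05 to 0.69. The gap of Il12b over Il23a within each array, set the same way, was 3.33 and 2.16 in brain DCs and -0.24, -0.12 and 0.36 in monocytes.

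Ebi3 encodes the p40-like subunit of interleukin 27. It was at 0.23 and 0.71 in brain DCs, against 0.55, 0.37 and 0.64 in monocytes. The brain DC arrays spanned all monocyte arrays, with one below and the other above them. The difference of -0.05 ± 0.17 SE was not called (limma adjusted p = 0.844), and its 95% interval ran from -0.46 to 0.35. The gap of Il12b over Ebi3 within each array was 3.92 and 2.32 in brain DCs and -0.02, -0.04 and 0.06 in monocytes, again with no overlap and no test.

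**Figure D2:**
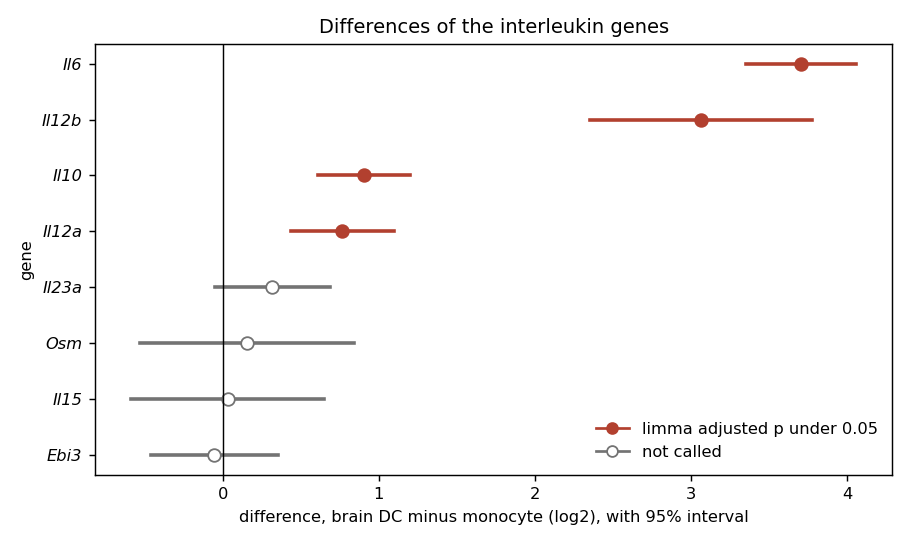
Difference between brain DC and monocyte means on the log2 scale (x axis) for the 8 measured genes (y axis), from 2 brain DC and 3 monocyte arrays, with bars for the 95% interval of the limma fit. Filled red points passed the adjusted p threshold: Il6 at 3.70, Il12b at 3.07, Il10 at 0.91 and Il12a at 0.77, while the intervals of Il23a, Osm, Il15 and Ebi3 include 0.

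Il6 encodes interleukin 6, an inflammatory cytokine that acts through a receptor made of the Il6ra and Il6st products. It was at 3.41 and 3.55 in brain DCs, against -0.43, -0.20 and -0.04 in monocytes. The brain DC arrays were close to each other and far above all monocyte arrays. Il6 was 13.04-fold higher in brain DCs (3.70 ± 0.15 SE, limma adjusted p = 5.90e-06), which was the 92nd largest increase of all genes.

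Oncostatin M, encoded by Osm, belongs to the same gp130 cytokine family. Osm was at 0.44 and 0.52 in brain DCs, against 0.73, 0.56 and -0.32 in monocytes. The brain DC arrays lay inside the monocyte range, whose width came from monocyte replicate 3. The difference of 0.16 ± 0.29 SE was not called (limma adjusted p = 0.716), with a 95% interval from -0.53 to 0.84. Differences of either direction inside that interval are compatible with these arrays.

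Il10 encodes interleukin 10, which damps the release of interleukin 12 and other cytokines by myeloid cells. It was at 0.35 and 0.40 in brain DCs, against -0.42, -0.55 and -0.62 in monocytes. Both groups were tight and did not overlap. Il10 was 1.88-fold higher in brain DCs (0.91 ± 0.13 SE, limma adjusted p = 0.00144). Its brain DC arrays were 0.05 apart, while those of Il12b were 1.13 apart.

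Il15 encodes interleukin 15, a survival and growth factor of natural killer cells and memory CD8 T cells that myeloid cells present bound to the Il15ra product. It was at 1.49 and 1.16 in brain DCs, against 1.82, 0.90 and 1.16 in monocytes. The brain DC arrays lay within the monocyte range, with monocyte replicate 1 above both. The difference of 0.03 ± 0.26 SE was not called (limma adjusted p = 0.940), with a 95% interval from -0.59 to 0.65.

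The genes with the pattern most like that of Il6, the called member with the largest increase, were named by the Euclidean distance over the 5 arrays after each gene was centred on its own mean. They were Fam149a at a distance of 0.33, Maff at 0.34, Prss30 at 0.35, H2-DMb2 at 0.38 and Socs3 at 0.39, against a median distance of 3.99 over all other genes. This likeness is a description over arrays that differ mainly between the 2 groups. No member was called lower, so no such list was made for a decrease.

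Of 11 measured receptor chains, 0 were called higher, 2 lower and 9 not called, with a median difference of -0.02. For this list and those below, the shares over all genes were 16.9% called higher and 16.9% called lower. The share of receptor chains called lower was near that. Il6st, which encodes gp130, was at -1.02 and -0.64 in brain DCs, against -0.08, 0.24 and 0.32 in monocytes, and it was lower by a difference of -0.99 ± 0.18 SE (limma adjusted p = 0.00463). Il10rb, which encodes the second chain of the interleukin 10 receptor, was lower by a difference of -0.76 ± 0.13 SE (limma adjusted p = 0.00371). The ligand-binding chain genes Il6ra (-0.07), Il10ra (-0.08) and Il15ra (-0.36) and the interleukin 12 receptor genes Il12rb1 (0.27) and Il12rb2 (0.25) were not called. Il15ra was called lower when suffixed probe sets (_s_at, _x_at and _a_at) were left out (-0.67, limma adjusted p = 0.0145) and when monocyte replicate 2 was left out (-0.49, limma adjusted p = 0.0412). Il23r and Il2rg had no probe set of their own.

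Among 14 measured JAK and STAT signal genes, 3 were called higher, 4 lower and 7 not called, with a median of 0.18. Among all genes, 16.9% were called higher and 16.9% lower. Socs3, an inhibitor of gp130 signalling, was at 3.33 and 3.51 in brain DCs, against -0.43, -0.44 and -0.51 in monocytes, a 14.7-fold difference (3.88 ± 0.13 SE, limma adjusted p = 2.80e-06). Jak2, a kinase bound to the interleukin 12 and interleukin 23 receptors, was higher by 0.97 ± 0.15 SE. Stat4, which carries the interleukin 12 signal, was higher by 1.07 ± 0.24 SE (limma adjusted p = 0.0127), and was not called once brain DC replicate 2 was left out (0.93, limma adjusted p = 0.0713). The 4 lower genes were Jak1 (-1.51 ± 0.20 SE), Stat5b (-1.19), Pias1 (-0.81) and the phosphatase gene Ptpn6 (-0.58). Ptpn6 was no longer called when brain DC replicate 1 (limma adjusted p = 0.148), the first monocyte array (limma adjusted p = 0.0757) or the third (limma adjusted p = 0.0845) was left out, or with the replicate block (-0.51, limma adjusted p = 0.0788). Stat3, which carries the signals of interleukins 6, 10 and 23, was at -0.20 and not called.

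Transcription factors known to act on these cytokine genes were mostly higher. Of 20 measured, 12 were called higher, 1 lower and 7 not called, with a median of 0.62. Atf3, a stress-induced factor that restrains Il6 and Il12b in macrophages, was higher by 3.64 ± 0.21 SE and Batf3, required for cross-presenting dendritic cells, by 3.11 ± 0.18 SE. Rel, which encodes the NF-kappaB subunit c-Rel needed for Il12b in macrophages, was at 2.40 and 2.33 in brain DCs, against -0.14, -0.70 and -0.52 in monocytes (2.82 ± 0.18 SE, limma adjusted p = 4.44e-05). Nfkbid, an atypical inhibitor of the NF-kappaB family, was higher by 2.18 ± 0.13 SE. Prdm1, which encodes the repressor Blimp-1, was the gene called lower (-0.94 ± 0.25 SE, limma adjusted p = 0.0254). That call was lost without either brain DC replicate or without monocyte replicate 1 or 2 (limma adjusted p from 0.0645 to 0.117). Rela (0.05), Irf1 (-0.26) and Cebpb (-0.14) were not called. Without suffixed probe sets Cebpb was at -0.80 and called lower (limma adjusted p = 0.0325). Without brain DC replicate 2 the 12 higher factors became 9, as Irf8, Spi1 and Relb lost their calls.

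Of 18 other helical and polarising cytokines measured, 9 were called higher, 0 lower and 9 not called, with a median of 0.29. The 9 became 7 with the replicate block and without monocyte replicate 3, as Csf3 and Ctf1 lost their calls. Without monocyte replicate 1 or 2 they became 8. Il1b, the inflammatory cytokine interleukin 1 beta, was higher by 6.06 ± 0.21 SE, and Il18, which acts with interleukin 12 on natural killer and T cells, by 2.42 ± 0.20 SE. Clcf1, a member of the gp130 cytokine family, was higher by 1.85 ± 0.15 SE. Ifng, the product of natural killer and T cells that interleukin 12 induces, was at 2.0 and 0.88 in brain DCs, against -0.15, 0.12 and -0.24 in monocytes (1.53 ± 0.30 SE, limma adjusted p = 0.00713). As for Il12b, brain DC replicate 1 was above replicate 2. The T helper cytokine genes Il4 (-0.23), Il13 (-0.13), Il17a (0.13) and Il2 (-0.07) were not called.

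**Figure D3:**
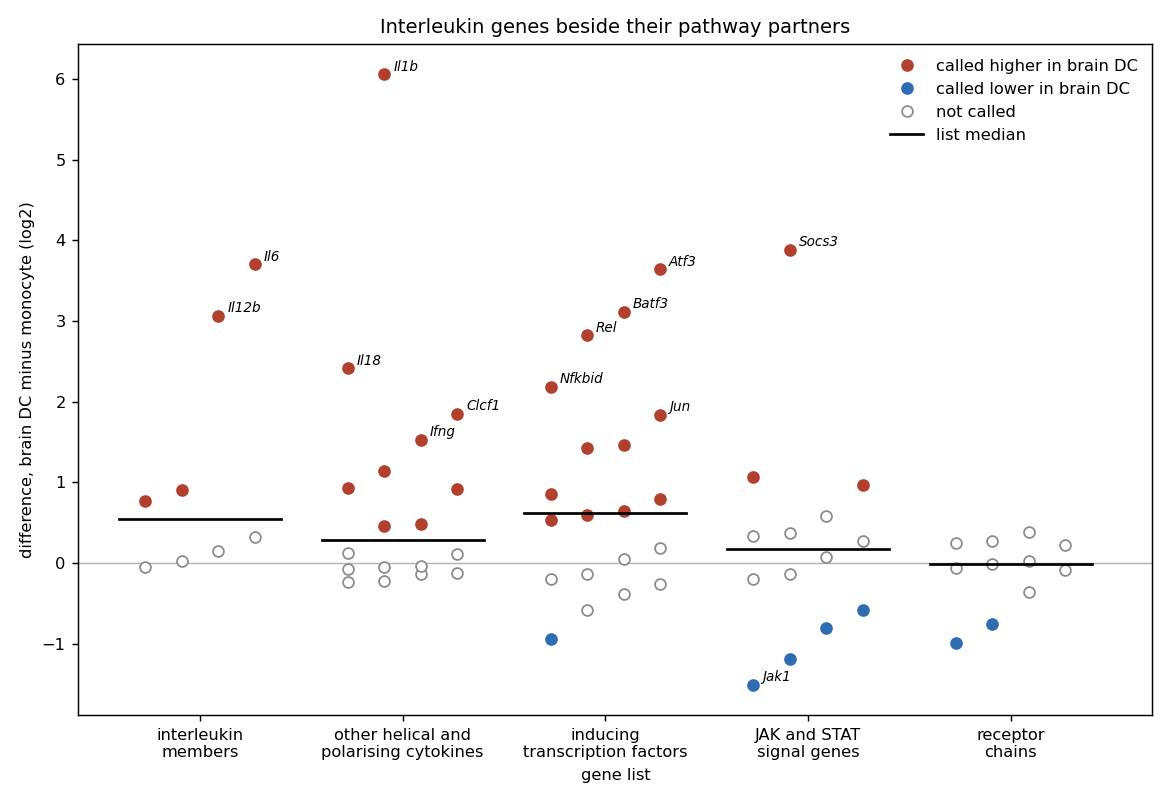
Difference between brain DC and monocyte means on the log2 scale (y axis) for each gene of the interleukin members and of 4 lists of partners (x axis), with 2 brain DC and 3 monocyte arrays. Filled points were called higher (red) or lower (blue), open points were not called, and black lines are list medians, which lie at 0.54 for the members, 0.62 for the transcription factors and -0.02 for the receptor chains.

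Many markers of other cells and of cell stress differed between the same groups. Their counts stand beside 16.9% of all genes called higher and 16.9% called lower. Of 19 stress and immediate early genes, 17 were called higher, 0 lower and 2 not called, with a mean over the list of 0.70 and 0.89 in brain DCs, against -1.68, -1.81 and -2.12 in monocytes. Egr1 (5.39), Fosb (5.06), Egr3 (4.12) and Egr2 (3.99) had the largest differences. Of 15 natural killer and T cell markers, 8 were called higher and 0 lower, with a list mean of 0.82 and 0.68 in brain DCs, against -0.58, -0.58 and -0.54 in monocytes. Klrd1 (6.29), Klrk1 (4.06), Gzma (2.75) and Gzmb (1.56) led that list, while the natural killer receptor gene Ncr1 (0.10) was not called. Of the T cell receptor complex genes, Cd3d was called higher (0.45, limma adjusted p = 0.0381), and Cd3g (0.48) and Cd3e (0.19) were not called. The Cd3d call was lost with the replicate block (0.41, limma adjusted p = 0.110) and with quantile normalisation (0.45, limma adjusted p = 0.0536). Leaving out any 1 of the monocyte arrays also lost it (limma adjusted p from 0.0784 to 0.109), as did leaving out brain DC replicate 2 (0.32). Of 10 microglia markers, 8 were called higher and 1 lower, with a list mean of 1.29 and 1.20 in brain DCs, against -0.29, -0.42 and -0.24 in monocytes. Gpr34 (3.64), Fcrls (3.45) and P2ry12 (2.49) were higher and Cx3cr1 (-2.56) was lower. Of 11 choroid plexus, glial, neuronal and endothelial markers, 3 were called higher and 0 lower, with Ttr at 7.22 and Cldn5 at 2.56. Of 5 B cell markers, 1 was called higher, a share near that of all genes, and 0 lower. Of 9 neutrophil markers, 1 was called higher, S100a9 at 1.41, and 4 lower, with Mmp8 at -4.76, Mpo at -4.64 and Prtn3 at -4.53. Camp (1.33), Ngp (1.25), Ltf (0.92) and S100a8 (-0.12) were not called. With the replicate block Ngp (1.70) and Ltf (1.11) were called higher. The neutrophil list mean was 1.44 and 1.13 in brain DCs, against 1.56, 3.02 and 3.11 in monocytes. Mpo was at 1.81 in monocyte replicate 1, against 5.72 and 5.22 in the other monocyte arrays. Mpo was no longer called when either brain DC array was left out (limma adjusted p = 0.0512 without the first and 0.0523 without the second). Centred values do not show which of these markers are absent. Their part in the interleukin results was not tested.

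Some of these markers shared the order of the brain DC arrays seen for Il12b. Gzma was at 2.77 and 1.55 and P2ry12 at 3.18 and 2.06 in brain DC replicates 1 and 2. Klrd1 had the same order with a smaller gap, at 3.41 and 3.08. Gzmb (0.81 and 1.14) and Fcrls (3.02 and 3.37) had the reverse order. Replicate 1 was above replicate 2 in 8 of 9 neutrophil markers, in 4 of 5 B cell markers, in 10 of 15 natural killer and T cell markers, in 6 of 10 microglia markers, in 4 of 8 monocyte markers and in 4 of 11 choroid plexus, glial, neuronal and endothelial markers. The share was 3 of 10 for conventional dendritic cell markers and 2 of 19 for stress and immediate early genes. The same count over all genes was not made, so whether any of these shares is unusual cannot be said. These counts ignore the size of the gap, which was 0.004 for the neutrophil marker Ngp. The B cell list mean was lower in replicate 1 (-0.34) than in replicate 2 (-0.14), with Cd79b at -2.07 and -0.47. The neutrophil granule gene Camp, at 3.17 and 1.27 in the brain DC arrays, had a gap of 1.90, wider than in 99.9% of all genes. With 2 arrays this order could not be tested.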

How the data were processed

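Arrays of brain dendritic cells (2) and bone marrow monocytes (3) were used. The deposited log2 values were made by the authors with RMA, per the submitters' processing notes. The version of RMA, how values were centred and which arrays were normalised together are not given in the labels, and the log base is inferred from a largest range of 8.86 within a probe set. RMA corrects background, scales arrays by quantiles and compresses differences of dim probe sets. Array medians lay between -0.05 and 0.00.

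After the 64 control probe sets were left out, probe sets with exactly 1 symbol were averaged per gene. All genes were fitted with lmFit and eBayes of limma (version 3.58.1, R version 4.3.3) without covariates, and p-values were adjusted by Benjamini-Hochberg over them. Residual degrees of freedom were 3. The fit was tested on simulated data. Array number limits the precision. Named genes were all members, up to 4 genes per list and direction by size, and some genes that were not called. Members, lists and tests were chosen with earlier results of these data known. Alternatives were a replicate block, quantile normalisation, robust eBayes, other probe set rules and leaving out each array.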

Additional observations from a re-analysis of the deposited data

How the results depend on the processing

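Il6, Il12b, Il10 and Il12a kept their direction and, in the fit on gene means, their call in every alternative in which they had a value: 10 alternatives for the first 3 and 9 for Il12a, whose only probe set drops out when suffixed probe sets are left out. Their differences ranged from 3.60 to 3.80, from 2.50 to 3.63, from 0.86 to 0.98 and from 0.64 to 0.90 in that order. Not every alternative could move a difference: robust eBayes changes only the spread, and a median over 1 or 2 probe sets equals the mean. Leaving out suffixed probe sets removed none of Il6, Il12b or Il10. The replicate block gave the same differences as leaving out monocyte replicate 3, the only array in its block. The fits without a brain DC array took their spread from the monocyte arrays alone. In the fit on probe sets, 4 instead of 5 member probe sets were called without brain DC replicate 2. Il23a stayed positive and uncalled, between 0.23 and 0.44. The replicate numbers are not stated to pair samples: deviations of same-numbered arrays correlated at 0.04 and 0.09. With the replicate block, 2513 genes were higher and 3006 lower, against 3068 and 3083 without it. The sign of the 3 other members was not settled, and the cause was not tested. Ebi3 became 0.0063 with the replicate block and 0.066 with quantile normalisation, and lay between -0.29 and 0.18 when 1 array was left out. Il15 became -0.036 and Osm -0.17 with the replicate block. Over the arrays left out, Il15 lay between -0.16 and 0.30 and Osm between -0.17 and 0.36. Of the transcription factors, 2 were called lower with the replicate block and 2 without suffixed probe sets, and 0 to 1 when 1 array was left out. With quantile normalisation 1 receptor chain, Lifr, was called higher. A filter on low levels needs levels and was not run. An arm left with 1 array was assumed to vary like the other.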
